A study of Homo sapiens with 12 samples.

Results

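The genes described here are very long human genes, many of them known from common fragile sites, followed in EU-seq libraries of U2OS-MycER cells. The members are a list of 44 gene symbols, looked up by Entrez identifier in a table of 23434 genes, and a member was kept where its raw count averaged at least 20 over the 12 libraries. This left 39 genes. FHIT, NAALADL2, CTNNA3, LRP1B and MACROD2 were left out, with mean raw counts of 2.5, 2.25, 3.17, 4.83 and 7.0, and the least counted gene kept, PRKG1, had a mean of 27.9. The rule used no other measured value. The spans of the kept genes in the RefSeq annotation of GRCh38.p14 ran from 317 kb for EXT1 to 2173 kb for DLG2, with a median of 706 kb, whereas the genes tested over all 12 libraries had a median span of 30.2 kb. 9 kept genes exceeded 1000 kb.

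Common fragile sites are chromosome regions that show gaps and breaks in metaphase when DNA replication is slowed. They lie largely within very long, transcribed genes, where few origins fire and where a transcription unit can take longer than a cell cycle phase to cross, so that replication and transcription share the same template. FHIT, WWOX and IMMP2L are the classical genes of this kind, and large deletions within them are common in tumour cells.

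The cells are a human osteosarcoma line carrying MycER, a fusion of Myc with the estrogen receptor that 4-hydroxytamoxifen (OHT) activates, and an shRNA that doxycycline induces. The 4 groups of 3 libraries were a non-targeting shRNA (shNT), shNT with OHT (shNT+OHT), an shRNA labelled as directed at the transcription kinase CDK12 (shCDK12), and the latter with OHT (shCDK12+OHT). All groups received doxycycline at 1 µg/mL, were held in mitosis by nocodazole at 100 ng/mL for 8 h, were released for 12 h and were given 5-ethynyl-uridine (EU) at 0.5 mM for 2 h, and the OHT groups had 300 nM OHT for 40 h. RNA made during the EU pulse was tagged with biotin, captured from a mixture of RNA from human cells (40 µg) and mouse cells (10 µg), and sequenced. As no mouse genes were used here, all levels are relative to the other human genes of a library. They are given as CPM (counts relative to the library total, scaled by TMM), and a lower level cannot be divided into fewer transcribing cells and less RNA per cell. No label says that the libraries of a group came from separate cultures, so p-values measure the spread between these libraries, which may be technical.

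CDK12, the targeted gene, was examined first. Its level was 323, 289 and 300.2 CPM in the shNT libraries and 293, 277 and 298 CPM in the libraries labelled shCDK12. These groups overlapped, and the log2 difference of -0.076 did not pass the threshold (edgeR adjusted p = 0.447). With OHT it was 434, 356 and 400.5 CPM in shNT+OHT and, under the label shCDK12+OHT, 215, 208 and 218 CPM, a log2 difference of -0.88 (SE 0.11, edgeR adjusted p = 0.00011). CDK12 therefore did not bear out the label shCDK12 without OHT. These counts are of RNA made during the EU pulse, so they do not measure the CDK12 RNA or protein that the cells held. The directions below that involve the libraries labelled shCDK12 or shCDK12+OHT are those of the labels. Total counts ran from 1251695 to 10447836 per library, with both shNT groups the shallowest, and replicate libraries differed by more than sampling noise (chi-square per gene from 2.69 to 9.31). shNT+OHT replicate 1 stood apart from the others of its group (8.57 and 9.31, against 3.80 between those). Pairs with shCDK12 replicate 2 had 6.88 and 4.80, against 3.27. This measure rises with depth, and that library was the deepest of its group (9400045 counts), so it is not shown to stand apart. Of 8 mesenchymal markers 7 averaged at least 20 counts, COL1A2 being at most 1.16 CPM, and the list summed to 1562-1656 CPM in shNT, 1038-1139 in shNT+OHT, 437-444 in shCDK12 and 609-623 in shCDK12+OHT. These markers did not move alike. In the same order of groups FN1, with the widest range, averaged 659, 347, 38.2 and 100 CPM. VIM averaged 323, 330, 180 and 174 CPM, and COL5A1 19.0, 7.48, 11.8 and 18.4 CPM. Of 8 markers of other cell types EPCAM, CDH1 and SYP averaged at least 20 counts. This list summed to between 17.9 and 29.8 CPM in every library, although its members moved in different directions. EPCAM averaged 0.820, 1.58, 8.03 and 2.64 CPM in shNT, shNT+OHT, shCDK12 and shCDK12+OHT, CDH1 9.57, 9.32, 6.10 and 7.63 CPM, and SYP 12.0, 11.6, 5.90 and 7.98 CPM. The part of these marker levels in the results was not tested.

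Several of the listed genes moved by more than the spread between libraries, and LSAMP and THSD4 lay at the ends of the range in both comparisons that start from shNT. LSAMP encodes a membrane-anchored adhesion protein of the immunoglobulin family that is often deleted in osteosarcoma, and THSD4 encodes a secreted protein of the ADAMTS-like family that associates with fibrillin microfibrils. Their promoters in RefSeq, from 250 bases before to 50 after the start in GRCh38.p14, are printed because these genes had the largest difference in each direction. LSAMP lies on the minus strand at chr3:116445438-116445737, and THSD4 on the plus strand at chr15:71096644-71096943. FAF1 (minus strand, chr1:50960218-50960517) and FRMD4A (minus strand, chr10:14008501-14008800) are printed because they alone among the kept genes with a promoter in the table held CACGTG, the E-box that Myc and Max bind, shown in capitals.
LSAMP: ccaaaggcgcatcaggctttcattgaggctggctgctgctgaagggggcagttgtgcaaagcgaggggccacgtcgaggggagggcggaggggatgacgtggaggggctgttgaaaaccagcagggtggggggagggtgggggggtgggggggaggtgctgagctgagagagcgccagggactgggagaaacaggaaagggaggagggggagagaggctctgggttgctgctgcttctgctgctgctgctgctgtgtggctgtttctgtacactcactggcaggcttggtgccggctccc
THSD4: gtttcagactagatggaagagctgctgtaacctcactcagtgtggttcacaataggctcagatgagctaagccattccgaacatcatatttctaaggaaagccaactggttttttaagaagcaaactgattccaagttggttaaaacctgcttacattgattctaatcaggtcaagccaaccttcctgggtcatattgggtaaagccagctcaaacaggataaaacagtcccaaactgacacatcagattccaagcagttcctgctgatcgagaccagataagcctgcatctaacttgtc
FAF1: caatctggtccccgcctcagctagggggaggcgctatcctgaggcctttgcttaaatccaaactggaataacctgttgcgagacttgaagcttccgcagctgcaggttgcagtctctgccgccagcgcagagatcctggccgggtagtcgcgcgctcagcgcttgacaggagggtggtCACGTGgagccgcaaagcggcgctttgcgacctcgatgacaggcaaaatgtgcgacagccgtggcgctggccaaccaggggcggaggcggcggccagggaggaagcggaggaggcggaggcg
FRMD4A: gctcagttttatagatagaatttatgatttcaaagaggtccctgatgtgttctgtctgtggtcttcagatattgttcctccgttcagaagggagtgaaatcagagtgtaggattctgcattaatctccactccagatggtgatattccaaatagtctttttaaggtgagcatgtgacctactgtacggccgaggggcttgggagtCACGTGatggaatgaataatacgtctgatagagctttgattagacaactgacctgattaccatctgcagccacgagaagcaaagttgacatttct
A promoter was found for 33 of the 39 kept genes. The motif CACGTG, which reads the same on both strands, stood in 2 of them (6.06%), against 7.26% of the 35116 promoters of the table. TATAAA, searched on both strands, stood in 2, FNDC3B and FRMD4A (6.06%, against 11.5%). The GC content of these promoters ranged from 35.7% for ZBTB20 to 82.3% for AUTS2 with a median of 65%, against a median of 58.7% over all promoters. FAF1 and FRMD4A passed no threshold in shNT+OHT against shNT, and the 8 genes that fell and the 1 that rose there, among those with a promoter, held no CACGTG in this window.

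Together the kept genes made up between 0.129% and 0.189% of the normalized counts of a library, and their share was on average largest in untreated shNT cells. Their summed level was 1837 ± 71.6 CPM in shNT, 1430 ± 51.4 in shNT+OHT, 1322 ± 29.1 in the libraries labelled shCDK12 and 1714 ± 64.3 in those labelled shCDK12+OHT (mean ± SD, n = 3 each). shNT and shCDK12+OHT overlapped, as shNT replicate 3 (0.176%) lay below shCDK12+OHT replicate 1 (0.178%). By group means, 18 of the 39 genes were highest in shNT and 12 in shCDK12+OHT, whereas 19 were lowest in shCDK12 and 10 in shNT+OHT. The commonest order, highest in shNT and lowest in shCDK12, was that of 17 genes: WWOX, PTPRK, CDH13, LSAMP, LPP, FNDC3B, PARD3, FRMD4A, EXOC4, RABGAP1L, TBC1D5, VPS13B, NBEA, FOXP1, TCF4, AUTS2 and EXT1. DLG2, PARD3B, UTRN, VTI1A, SMYD3, MSI2 and MAD1L1 were highest in shCDK12+OHT and lowest in shNT+OHT. DPYD, THSD4, PRKG1 and TTC28 were highest in shCDK12+OHT and lowest in shNT, and IMMP2L, NRXN3 and FAF1 highest in shCDK12 and lowest in shNT. PTPRG and MAGI2 were highest in shCDK12 and lowest in shNT+OHT, and GPHN, FBXL17, ZBTB20, FTO, ZFPM2 and EXOC6B each had an order of their own. Such orders were not counted over all genes, so they are not shown to be particular to the list. Per kilobase of exon in the GENCODE annotation, the highest levels in shNT were those of PARD3 (13.8 CPM per kb), FNDC3B (13.4), LSAMP (11.2) and EXT1 (10.9). Across 11513 genes log2 CPM rose by 0.42 per log2 unit of exon length and fell by 0.17 per log2 unit of span. Of the kept genes 38 overlap another RefSeq gene in their span, with a median of 6 such genes, and the strand setting of the counting is not given in the sources used here.

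**Figure D1:**
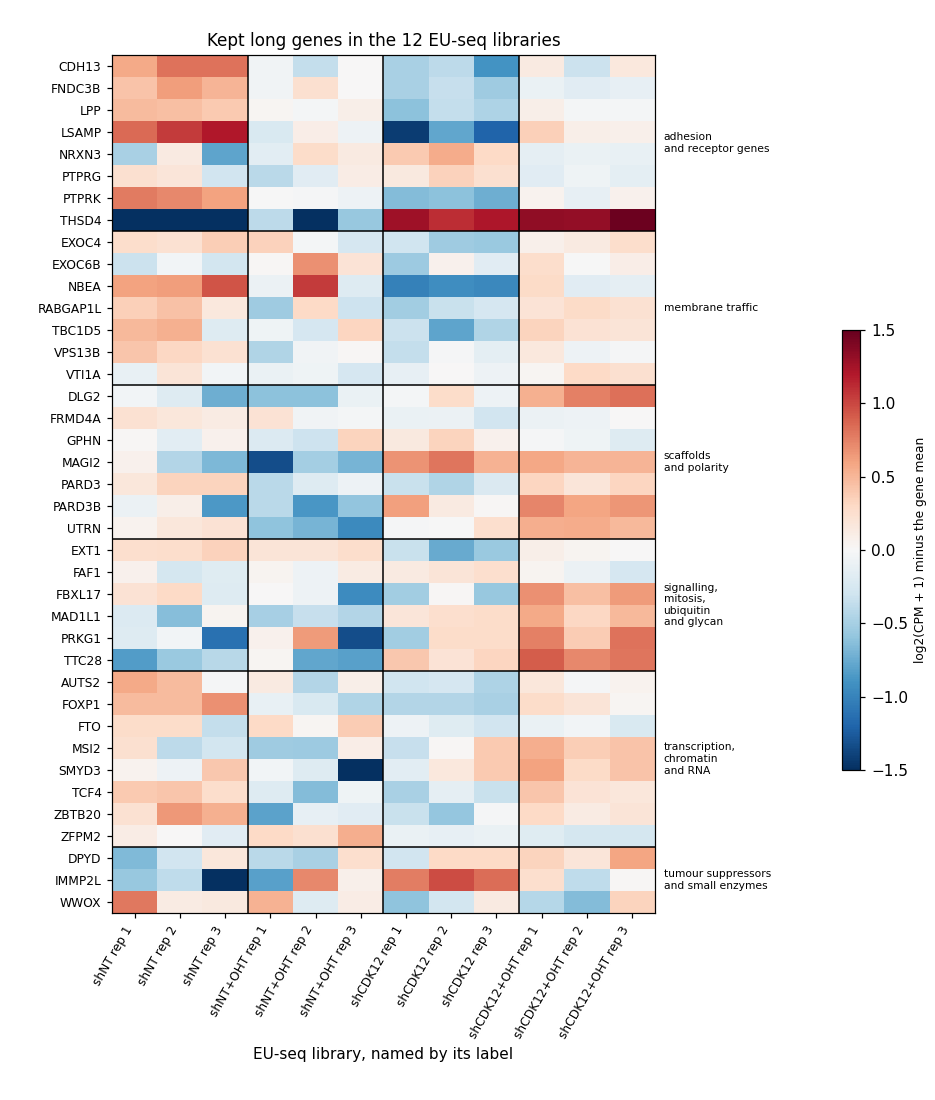
Level of the 39 kept genes (rows, by role) in the 12 libraries (columns, by label), as log2(CPM + 1) minus the mean of the gene, on a colour scale that stops at -1.5 and 1.5. LSAMP, PTPRK and LPP are red in shNT and blue in the libraries labelled shCDK12, and THSD4 is blue in shNT and red in all 6 libraries with the other shRNA.

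With MycER activated in shNT cells LSAMP, PTPRK, FOXP1 and UTRN were among the long genes that fell, and THSD4 rose. Of 31 kept genes tested in shNT+OHT against shNT, 11 fell and 1 rose at an edgeR adjusted p under 0.05, where 8.29% of all 10272 genes tested fell and 9.05% rose (17.3% in either direction). The median log2 difference was -0.29 over the listed genes and -0.029 over all genes. By role, 5 of 8 adhesion genes fell (LSAMP, PTPRK, LPP, FNDC3B and CDH13) and 1 rose (THSD4). Of the genes of transcription, chromatin and RNA 3 of 7 fell (FOXP1, TCF4 and ZBTB20). The scaffold genes had 2 of 5 lower (UTRN and PARD3) and the traffic genes 1 of 7 (VPS13B). None of 4 genes of the mixed role of signalling, mitosis, ubiquitin and glycans passed the threshold.

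LSAMP was at 101, 116 and 129 CPM in shNT and at 47.3, 59.4 and 52.5 CPM in shNT+OHT. Every OHT library lay below every shNT library, and LSAMP fell by 1.14 on the log2 scale (SE 0.17, edgeR adjusted p = 0.000521). PTPRK, a receptor tyrosine phosphatase that mediates cell contact, was at 79.6, 76.5 and 70.2 CPM and, with OHT, at 45.7, 45.4 and 43.8 CPM. The groups did not overlap (log2 difference -0.75, SE 0.16, edgeR adjusted p = 0.00631). CDH13, a cadherin held to the membrane by a lipid anchor, was scarcer, at 15.0, 18.0 and 18.0 CPM against 9.40, 7.42 and 9.86 CPM. It also showed no overlap (-0.89, SE 0.29, edgeR adjusted p = 0.0495), but it lost the call when any 1 of the 6 libraries was left out (edgeR adjusted p from 0.0533 to 0.172). THSD4 rose from 10.3, 10.5 and 8.52 CPM to 26.3, 11.5 and 23.2 CPM, a log2 difference of 1.09 (SE 0.32, edgeR adjusted p = 0.0291). Its lowest OHT library stood just above the highest shNT library.

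UTRN, the dystrophin relative that links actin to the membrane, was at 36.8, 39.8 and 41.1 CPM in shNT and at 22.9, 21.4 and 17.7 CPM in shNT+OHT. All 3 OHT libraries were lower (-0.93, SE 0.22, edgeR adjusted p = 0.00999). FOXP1, a forkhead transcription factor, was at 71.9, 72.0 and 83.2 CPM against 47.6, 43.7 and 37.4 CPM. Its groups were likewise apart (-0.82, SE 0.18, edgeR adjusted p = 0.00648). ZBTB20, a zinc finger repressor, was at 25.5, 34.4 and 31.6 CPM and, with OHT, at 11.9, 19.8 and 19.1 CPM, and TCF4, an E-protein, was at 91.1, 93.1 and 83.7 CPM and, with OHT, at 60.8, 43.7 and 66.1 CPM. Neither gene had overlapping groups, and the log2 differences were -0.88 for ZBTB20 (SE 0.27, edgeR adjusted p = 0.036) and -0.63 for TCF4 (SE 0.17, edgeR adjusted p = 0.0219). PARD3, a polarity scaffold at tight junctions, went from 93.7, 105 and 105 CPM to 62.3, 72.6 and 78.6 CPM (-0.51, SE 0.15, edgeR adjusted p = 0.0351). VPS13B, a lipid transfer protein of the Golgi that is mutated in Cohen syndrome, went from 145, 134 and 127 CPM to 78.3, 104 and 109 CPM (-0.49, SE 0.15, edgeR adjusted p = 0.0398). Both had every OHT library below the shNT range.

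The number of calls in this comparison depended on single libraries. The 12 calls became 4, 3 and 3 on leaving out shNT replicate 1, 2 or 3 in turn and 4 on leaving out shNT+OHT replicate 3, while LSAMP, PTPRK and FOXP1 kept theirs whichever library was left out. Leaving out shNT replicate 1, 2 or 3 left 30, 28 and 31 listed genes tested, and the share of all genes called in such fits is not given. Without shNT+OHT replicate 1, which stood apart, 8 genes fell and 1 rose, with a median of -0.33. THSD4 lost its call without shNT replicate 1, 2 or 3 or shNT+OHT replicate 3 (edgeR adjusted p = 0.0943, 0.108, 0.104 and 0.0799), as did PARD3 (0.0867, 0.148, 0.141 and 0.0576). UTRN lost it without shNT replicate 2 or 3 or shNT+OHT replicate 3 (0.0601, 0.0539 and 0.0527), and TCF4 without shNT replicate 1, 2 or 3 (0.0911, 0.103 and 0.0659). VPS13B and ZBTB20 lost it without any 1 of shNT replicates 1, 2 and 3 and shNT+OHT replicates 1 and 3 (0.17, 0.124, 0.107, 0.0536 and 0.0518 for VPS13B, 0.0655, 0.173, 0.121, 0.0627 and 0.0557 for ZBTB20).

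**Figure D2:**
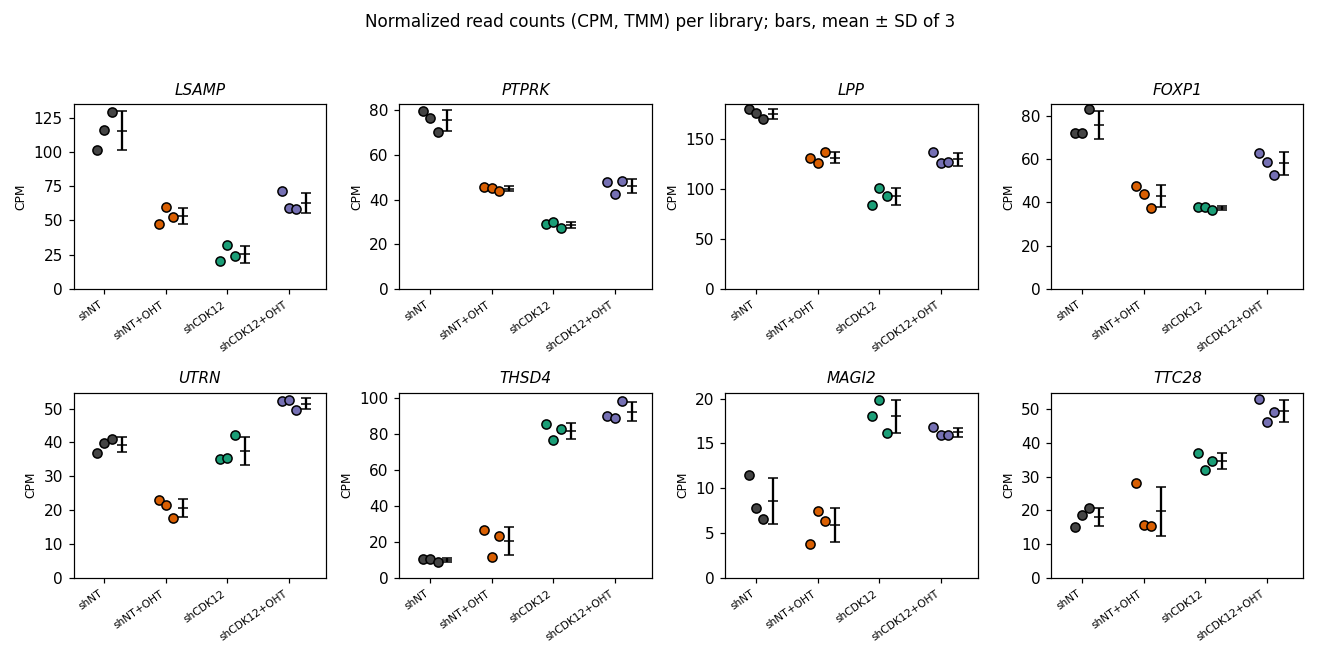
CPM of 8 kept genes in each library (points), with the mean and SD of each group of 3 (lines and bars). LSAMP, PTPRK, LPP and FOXP1 are highest in shNT and lowest in the libraries labelled shCDK12, UTRN is lowest in shNT+OHT, and THSD4, MAGI2 and TTC28 are higher with the other shRNA than in shNT.

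In the libraries labelled shCDK12 against shNT LSAMP, NBEA, CDH13 and PTPRK were far lower and THSD4 far higher. Of 36 genes tested 17 were lower and 5 higher, where 32.4% of all 11718 genes tested were lower and 29.6% higher (62% in either direction). The 22 genes called make up 61.1% of those tested, near that share of all genes. The median log2 difference was -0.41 over the listed genes and -0.027 over all genes. Lower were 5 of 8 adhesion genes (LSAMP, CDH13, PTPRK, FNDC3B and LPP) and 5 of 7 traffic genes (EXOC4, RABGAP1L, TBC1D5, VPS13B and NBEA). So were 4 of 8 genes of transcription, chromatin and RNA (FOXP1, TCF4, ZBTB20 and AUTS2) and 2 of 7 scaffold genes (PARD3 and FRMD4A). Of 5 genes of signalling, mitosis, ubiquitin and glycans 1 was lower, the glycan gene EXT1. Higher were THSD4, NRXN3, MAGI2, TTC28 and MAD1L1. Without shCDK12 replicate 2, 18 genes were lower and 5 higher, with a median of -0.47. CDK12 itself did not pass the threshold between these groups, as given above.

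THSD4 was at 85.5, 76.6 and 82.5 CPM in the libraries labelled shCDK12, far above its 8.52 to 10.5 CPM in shNT. The log2 difference was 3.02 (SE 0.16, edgeR adjusted p = 3.25e-14), or 8.12-fold. LSAMP was at 20.1, 31.9 and 23.7 CPM, 4.44-fold below shNT (log2 difference -2.15, SE 0.15, edgeR adjusted p = 7.64e-12). No library of one group reached the range of the other for either gene. NBEA, a large scaffold of vesicle traffic, was at 11.2, 11.5 and 14.5 CPM in shNT and at 3.01, 3.25 and 3.15 CPM in shCDK12 (-1.94, SE 0.30, edgeR adjusted p = 4.6e-06). Its 3 libraries of the latter group were nearly equal and well below the rest.

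The 4 further adhesion genes called lower were so in every library of the group. CDH13 was at 6.72, 7.24 and 4.81 CPM (-1.42, SE 0.26, edgeR adjusted p = 4.11e-05) and PTPRK at 29.0, 29.8 and 27.2 CPM (-1.40, SE 0.13, edgeR adjusted p = 1.95e-09). FNDC3B, a membrane protein with fibronectin type III domains, was at 166, 191 and 177 CPM in shNT and at 88.5, 97.0 and 85.5 CPM in shCDK12 (-0.98, SE 0.098, edgeR adjusted p = 4.66e-09). None of these genes had overlapping groups. LPP, a focal adhesion LIM protein of the zyxin family, was at 179.7, 176 and 169 CPM against 83.4, 100.4 and 93.3 CPM (-0.92, SE 0.098, edgeR adjusted p = 1.36e-08). FOXP1 was at 37.8, 37.8 and 36.5 CPM, below all 3 shNT libraries (-1.01, SE 0.13, edgeR adjusted p = 3.66e-07). MAGI2, a scaffold with PDZ domains at cell junctions, was at 11.5, 7.81 and 6.52 CPM in shNT and at 18.1, 19.8 and 16.1 CPM in shCDK12 (1.03, SE 0.24, edgeR adjusted p = 0.000763). TTC28, a repeat protein of the midzone in dividing cells, was at 15.0, 18.5 and 20.5 CPM against 37.1, 32.1 and 34.8 CPM (0.96, SE 0.18, edgeR adjusted p = 5.49e-05). Both genes were higher in every library of the group.

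Of the classical fragile site genes little RNA was counted. FHIT, a diadenosine polyphosphate hydrolase, had between 0 and 6 raw counts in every library and was not tested. WWOX, an oxidoreductase with WW domains, was at 10.8, 6.44 and 6.52 CPM in shNT, 8.77, 4.95 and 6.38 CPM in shNT+OHT, 3.47, 4.62 and 6.48 CPM in shCDK12 and 4.08, 3.33 and 7.62 CPM in shCDK12+OHT. No pair of its groups was apart, and shCDK12 against shNT gave a log2 difference of -0.72 (SE 0.33, edgeR adjusted p = 0.0592). That value passed the threshold without shNT replicate 2 (edgeR adjusted p = 0.043) or shCDK12 replicate 3 (0.0361). IMMP2L, a protease of the inner mitochondrial membrane, was at 2.81, 3.32 and 1.00 CPM in shNT, 2.19, 8.25 and 4.93 CPM in shNT+OHT, 8.57, 10.1 and 9.07 CPM in shCDK12 and 5.71, 3.33 and 4.72 CPM in shCDK12+OHT. It had enough counts for a test only between the last pair of groups, where shCDK12+OHT was lower in every library (-1.05, SE 0.24, edgeR adjusted p = 0.00167). For WWOX the same comparison gave -0.036 (SE 0.32, edgeR adjusted p = 0.936).

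**Figure D3:**
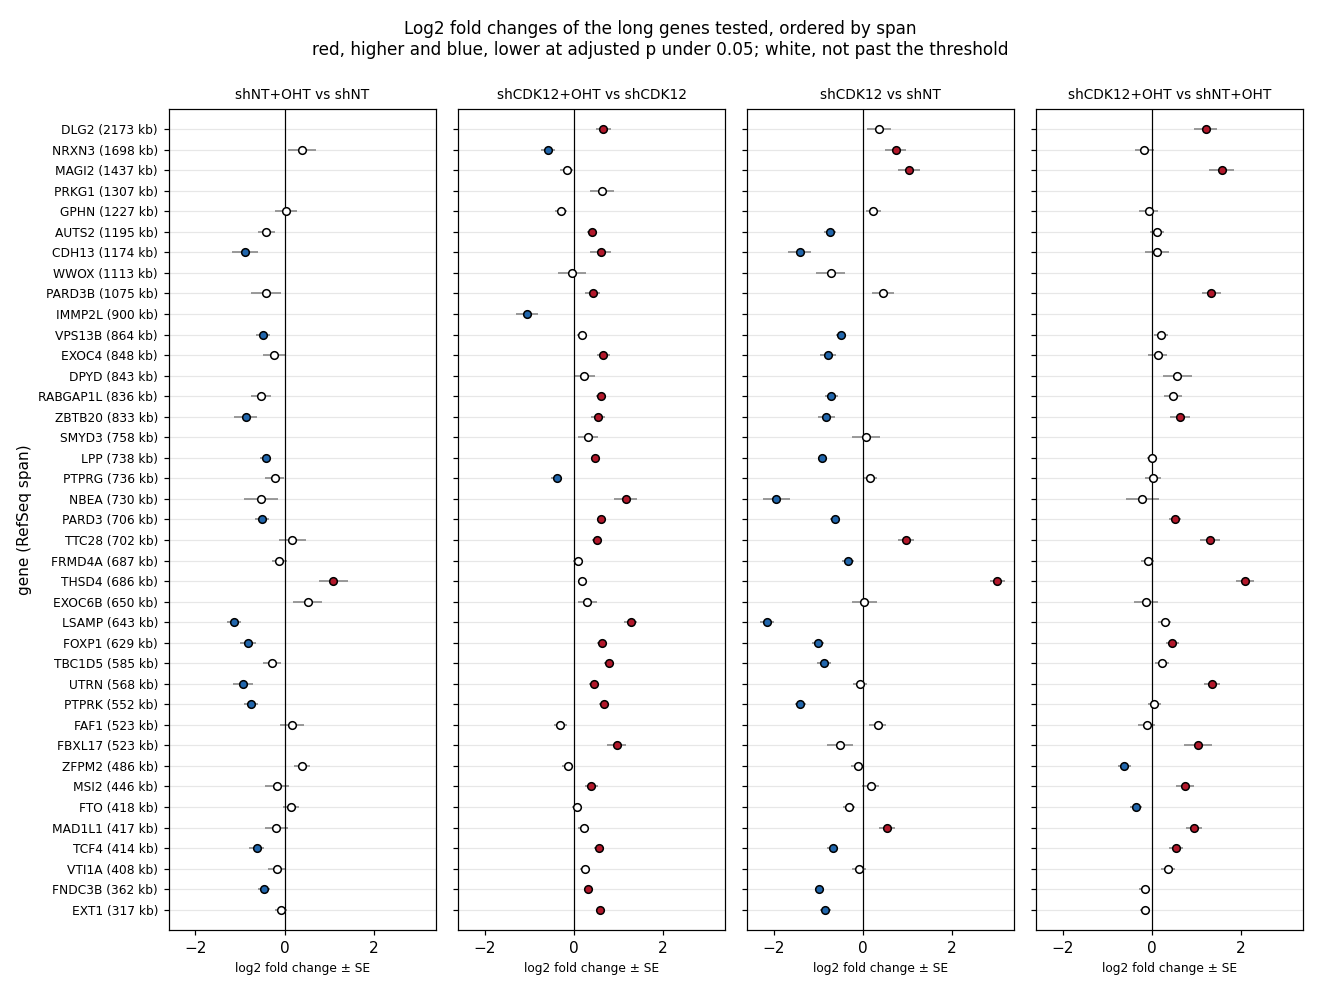
Log2 difference (x axis, ± SE) of each kept gene tested in 4 comparisons (panels), with genes ordered by RefSeq span from DLG2 at 2173 kb to EXT1 at 317 kb. Most filled points lie left of 0 in shNT+OHT and in shCDK12 against shNT, and right of 0 in shCDK12+OHT against shCDK12 and against shNT+OHT.

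Among cells with OHT the listed genes lay mostly on the other side. The shNT+OHT libraries enter both here and in shNT+OHT against shNT, on opposite sides of the difference, so the 2 results are not independent. Of 35 tested in the libraries labelled shCDK12+OHT against shNT+OHT, 13 were higher and 2 lower, where 23.8% of all 11668 genes tested were higher and 21.6% lower (45.4% in either direction). Their median log2 difference was 0.22, against 0.048 over all genes, and it turned to -0.23 when the trend with gene length described below was removed. Higher were 5 of 7 scaffold genes (MAGI2, DLG2, PARD3, PARD3B and UTRN) and 4 of 7 genes of transcription, chromatin and RNA (FOXP1, TCF4, ZBTB20 and MSI2). So were 3 of 5 genes of signalling, mitosis, ubiquitin and glycans (MAD1L1, TTC28 and FBXL17) and 1 of 8 adhesion genes (THSD4). ZFPM2 and FTO were lower, and none of 7 traffic genes passed the threshold. CDK12 was lower between these groups, as labelled.

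THSD4 was at 89.7, 88.7 and 98.3 CPM in shCDK12+OHT, above all shNT+OHT libraries (2.10, SE 0.20, edgeR adjusted p = 2.99e-05). MAGI2 was at 3.76, 7.42 and 6.38 CPM in shNT+OHT and at 16.8, 16.0 and 16.0 CPM in shCDK12+OHT (1.57, SE 0.28, edgeR adjusted p = 0.00119). UTRN was at 52.2, 52.5 and 49.7 CPM, its highest levels in any group (1.35, SE 0.17, edgeR adjusted p = 0.000143). None of these genes had overlapping groups. PARD3B, a relative of PARD3, was at 10.7, 7.42 and 9.28 CPM against 24.7, 22.3 and 23.4 CPM (1.33, SE 0.22, edgeR adjusted p = 0.000667). DLG2, a synaptic scaffold of the membrane-associated guanylate kinase family and the longest gene of the list, was at 6.58, 6.60 and 9.86 CPM against 15.9, 18.6 and 19.6 CPM (1.20, SE 0.25, edgeR adjusted p = 0.00288). Both genes were higher in all 3 libraries of shCDK12+OHT.

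TTC28 was at 28.2, 15.7 and 15.4 CPM in shNT+OHT and at 53.0, 46.3 and 49.2 CPM in shCDK12+OHT (1.30, SE 0.23, edgeR adjusted p = 0.00107). MAD1L1, a component of the spindle checkpoint, was at 21.3, 23.9 and 22.3 CPM against 46.1, 38.1 and 43.4 CPM (0.95, SE 0.17, edgeR adjusted p = 0.00132). Neither gene's groups overlapped. FBXL17, a substrate adaptor of an SCF ubiquitin ligase, was at 8.77, 8.25 and 4.06 CPM against 14.7, 12.3 and 14.1 CPM (1.03, SE 0.31, edgeR adjusted p = 0.0193). MSI2, an RNA-binding protein of the Musashi family, was at 20.1, 19.8 and 31.6 CPM against 43.3, 38.3 and 39.9 CPM (0.75, SE 0.20, edgeR adjusted p = 0.0122), and ZBTB20 was at 26.8, 23.7 and 24.9 CPM in shCDK12+OHT (0.62, SE 0.23, edgeR adjusted p = 0.0434). All were higher in each library of shCDK12+OHT. The 15 calls became 8 without shCDK12+OHT replicate 1, and 17 without shNT+OHT replicate 1 (15 higher and 2 lower, median 0.32). MSI2 lost its call there (edgeR adjusted p = 0.059), FBXL17 lost it without shNT+OHT replicate 3 (log2 difference 0.65, edgeR adjusted p = 0.0773) or shCDK12+OHT replicate 1 or 3 (0.0825 and 0.0697), and ZBTB20 lost it without shNT+OHT replicate 1 (0.37, edgeR adjusted p = 0.127) or shCDK12+OHT replicate 1, 2 or 3 (0.16, 0.105 and 0.116).

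Within the libraries labelled shCDK12, most of the listed genes that passed the threshold were higher with OHT. Of 39 tested 21 were higher and 3 lower, where 27.5% of all 12519 genes tested were higher and 21.5% lower (48.9% in either direction), and the median log2 difference was 0.41 against 0.048 over all genes. Higher were 5 of 8 adhesion genes, 5 of 8 genes of transcription, chromatin and RNA, 4 of 7 scaffold genes and 4 of 7 traffic genes. So were 3 of 6 genes of signalling, mitosis, ubiquitin and glycans. IMMP2L, NRXN3 and PTPRG were lower. Without shCDK12 replicate 2, 20 were higher and 3 lower (median 0.37). CDK12 was also lower with OHT (-0.44, edgeR adjusted p = 9.55e-05).

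LSAMP was at 71.3, 59.0 and 58.4 CPM in shCDK12+OHT, above its 20.1 to 31.9 CPM without OHT (1.28, SE 0.14, edgeR adjusted p = 1.28e-06). NBEA was at 8.83, 6.18 and 6.35 CPM (1.17, SE 0.26, edgeR adjusted p = 0.00129) and PTPRK at 47.8, 42.3 and 48.3 CPM (0.68, SE 0.12, edgeR adjusted p = 0.000135). All 3 genes had their lowest group in shCDK12, with no overlap with shCDK12+OHT. FBXL17 was at 5.79, 8.81 and 5.55 CPM without OHT and above 12 CPM with it (0.96, SE 0.21, edgeR adjusted p = 0.00108), and DLG2 was at 10.4, 13.1 and 9.99 CPM without it (0.66, SE 0.17, edgeR adjusted p = 0.00377). TBC1D5, a Rab GTPase-activating protein of retromer traffic, was at 48.6, 34.7 and 44.2 CPM against 76.9, 71.0 and 70.0 CPM with OHT (0.79, SE 0.12, edgeR adjusted p = 2.72e-05). EXOC4, a subunit of the exocyst that tethers secretory vesicles, was at 17.6, 14.8 and 14.6 CPM against 23.1, 24.2 and 26.5 CPM (0.66, SE 0.15, edgeR adjusted p = 0.00118). The libraries with OHT were the higher ones for all of these. FOXP1 was at 62.6, 58.9 and 52.4 CPM with OHT (0.64, SE 0.11, edgeR adjusted p = 9.44e-05). PARD3 was at 65.8, 60.3 and 70.9 CPM without OHT and at 104, 93.9 and 104 CPM with it (0.62, SE 0.096, edgeR adjusted p = 4.15e-05), the latter within its range in untreated shNT.

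The response to OHT thus had opposite signs in the 2 shRNA backgrounds for most of the list. These comparisons share no library. Of 31 genes tested in both, 26 had opposite signs, 22 of them negative in shNT and positive in the libraries labelled shCDK12, while 71.1% of the 10233 genes tested in both had opposite signs. Of the 11 listed genes that fell with OHT in shNT, 10 were higher with OHT in the libraries labelled shCDK12, against 79.7% of the 844 such genes overall. VPS13B was the exception, with 84.1, 106 and 97.7 CPM in shCDK12 and 120.4, 102 and 106 CPM in shCDK12+OHT, which overlapped.

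The difference between the responses was tested as the interaction of OHT and shRNA over all 12 libraries, positive where OHT raised a gene more, or lowered it less, in the libraries labelled shCDK12. Of 36 genes tested 18 had a higher and 3 a lower response, where 25.6% of all 11699 genes tested were higher and 19.6% lower (45.2% in either direction), and the median was 0.81 against 0.10 over all genes. LSAMP had the largest value, 2.42 (SE 0.23, edgeR adjusted p = 9.27e-08). Among the other adhesion genes CDH13 had 1.50 (edgeR adjusted p = 0.00239) and PTPRK 1.43 (edgeR adjusted p = 3.32e-06). The traffic genes NBEA and RABGAP1L, a Rab GTPase-activating protein, had 1.72 (edgeR adjusted p = 0.00478) and 1.17 (edgeR adjusted p = 0.000611). FOXP1, ZBTB20 and TCF4 had 1.45, 1.42 and 1.20 (edgeR adjusted p = 4.87e-06, 0.000863 and 8.17e-05), UTRN had 1.39 (edgeR adjusted p = 3.25e-05) and FBXL17 had 1.53 (edgeR adjusted p = 0.00614). THSD4, NRXN3 and ZFPM2 had the 3 lower responses. The counts were 21 and 3 without shNT+OHT replicate 1 (median 0.73), and 18 and 1 without shCDK12 replicate 2 (median 0.79). Taking upper-quartile in place of TMM scaling moved the median of all genes by -0.12, to -0.017, and that of the listed genes to 0.69.

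**Figure D4:**
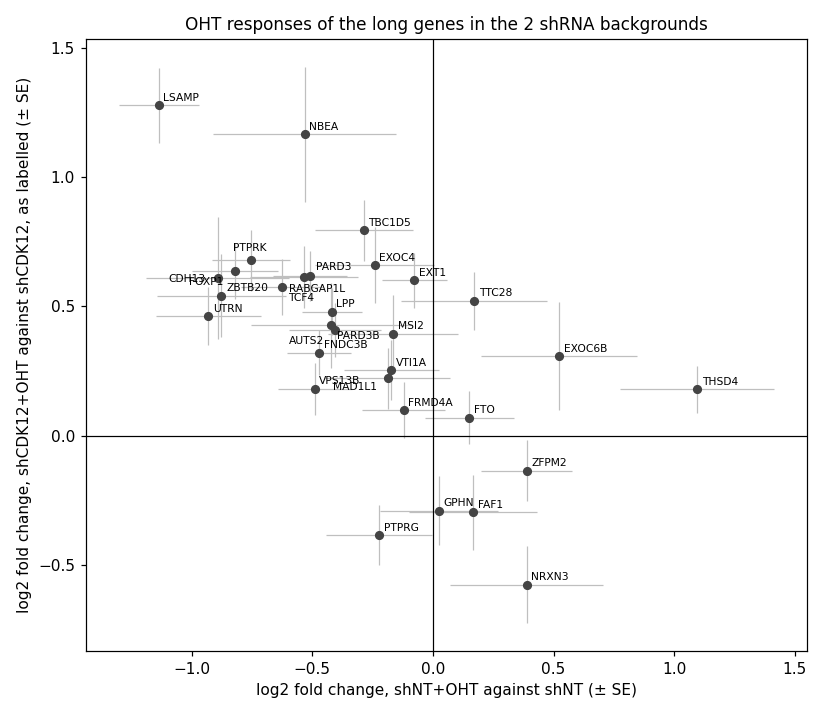
Log2 difference with OHT in shNT cells (x axis) against that in the libraries labelled shCDK12 (y axis) for the kept genes tested in both, each point a gene with its SE in both directions. 22 of the 31 points lie where x is negative and y positive, with LSAMP at -1.14 and 1.28.

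As gene length is what the listed genes share, they were placed beside other genes of like span. In shNT+OHT against shNT the median log2 difference went down with each class of span, from 0.20 in genes under 10 kb to -0.28 in the 301 other genes of 300 kb and over, and Pearson's r of the difference with log10 span was -0.29 across 10249 genes, which are not independent replicates. Of those 301 genes 13.6% fell and 1.66% rose. With OHT in both groups, shCDK12+OHT against shNT+OHT, the order was the opposite, with a median of -0.20 under 10 kb, 0.32 in 385 other genes of 300 kb and over, and r of 0.21 across 11636 genes. These comparisons share the shNT+OHT libraries, on opposite sides of the difference, so the opposite orders are not independent of each other. Of those 385 genes 35.1% were higher and 10.4% lower, close to the 37.1% and 5.71% of the listed genes. The median of 434 other genes of 300 kb and over in shCDK12+OHT against shCDK12 was 0.20, and 35.7% of them were higher (r of 0.12 across 12482 genes). The interaction had medians of -0.21 under 10 kb and 0.45 in 379 other genes of 300 kb and over. Of the latter 36.1% had a higher and 6.33% a lower response, against 50% and 8.33% of the listed genes. In shCDK12 against shNT the trend was slight, with r of -0.053 across 11685 genes, a median of -0.047 in 380 other genes of 300 kb and over, and 32.4% of these lower. Among the listed genes themselves r with span was between -0.18 and 0.21 in the 5 comparisons (n = 31 to 39).

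A smooth trend of level with span was then removed from each library. In shNT+OHT against shNT the listed genes then had a median of -0.012, and 1 of 31 fell and 2 rose, where 5.3% of all genes tested fell and 9.01% rose. LSAMP remained lower (-0.86, edgeR adjusted p = 0.00297) and THSD4 higher (1.38, edgeR adjusted p = 0.0118), and ZFPM2, a cofactor of GATA factors at 40.1, 37.1 and 32.6 CPM in shNT and 45.7, 43.7 and 54.2 CPM in shNT+OHT, was called higher (0.66, edgeR adjusted p = 0.0301). PTPRK, FOXP1 and UTRN came just short of the threshold (edgeR adjusted p = 0.0602, 0.0602 and 0.0609). CDH13, ZBTB20, TCF4, PARD3 and VPS13B had -0.60, -0.60, -0.36, -0.23 and -0.21, none past the threshold. In shCDK12 against shNT the median was -0.31, with 16 genes lower and 6 higher (30.4% and 31.2% of all genes), and 16 and 5 of these had the same call before. For shCDK12+OHT against shNT+OHT 10 were lower and 7 higher (26% and 18.9% of all genes), 2 and 7 of them with the same call before, and the removal itself moved the median of all genes by -0.11. FBXL17, MSI2 and ZBTB20 lost their calls there (0.57, 0.31 and 0.15). For shCDK12+OHT against shCDK12 the median was 0.17, with 13 higher and 7 lower (24.4% and 25.1% of all genes), and DLG2 lost its call (0.36, edgeR adjusted p = 0.0868). The median of the interaction fell from 0.81 to 0.21, with 9 higher and 7 lower (20.7% and 23.7% of all genes), while the median of all genes moved by -0.13. FBXL17 and CDH13 lost the call in the interaction (1.00 and 0.90, edgeR adjusted p = 0.0628 and 0.0514). LSAMP, NBEA, PTPRK, FOXP1, UTRN, ZBTB20, TCF4 and RABGAP1L passed it at the smaller values of 1.89, 1.17, 0.91, 0.91, 0.86, 0.86, 0.70 and 0.61. No listed gene was called in opposite directions before and after.

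**Figure D5:**
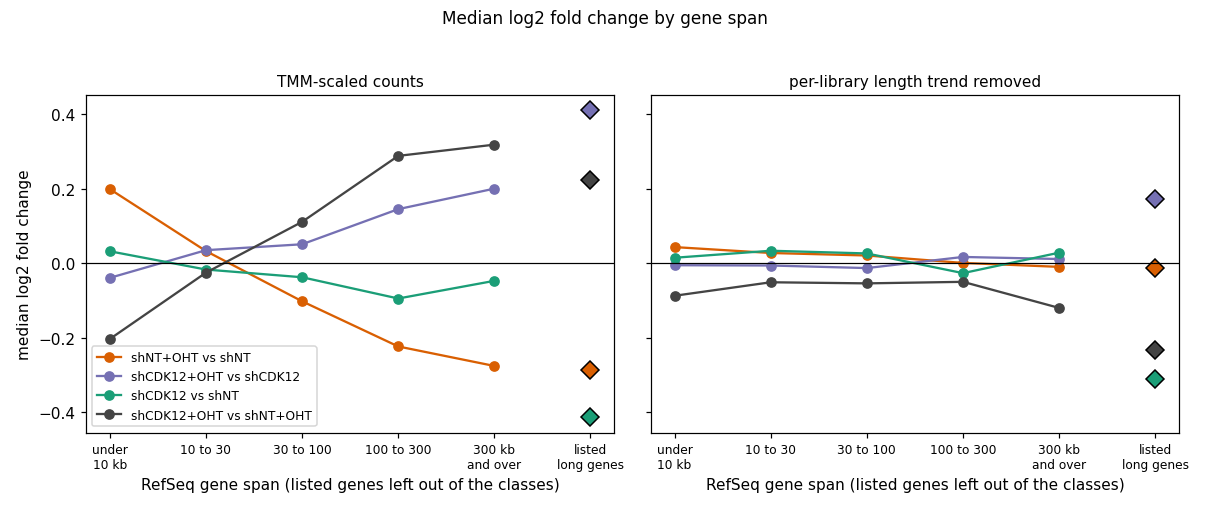
Median log2 difference (y axis) by class of RefSeq span (x axis) for genes outside the list, and for the listed genes (diamonds), in 4 comparisons (colours), with TMM scaling alone and after removal of the length trend. With TMM alone the class of 300 kb and over is at -0.28 in shNT+OHT against shNT and at 0.32 in shCDK12+OHT against shNT+OHT, where the median of the listed genes changes from 0.22 to -0.23 on removal.

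The remaining kept genes showed smaller or no differences. Before removal of the length trend 31 of the 39 passed the threshold in at least 1 of the 5 comparisons, and DPYD, EXOC6B, FAF1, GPHN, PRKG1, SMYD3, VTI1A and WWOX in none. After it GPHN and FAF1 were called lower in shCDK12+OHT against shNT+OHT, in shCDK12+OHT against shCDK12 and in the interaction. GPHN, the scaffold that clusters inhibitory receptors and makes molybdenum cofactor, was at 26.4, 26.3, 30.7 and 25.2 CPM on average in shNT, shNT+OHT, shCDK12 and shCDK12+OHT. VTI1A, a SNARE of the Golgi, was at 38.6, 34.5, 36.4 and 43.5 CPM, and EXOC6B, another exocyst subunit, at 8.44, 12.7, 8.52 and 10.9 CPM. None of these passed the threshold in any comparison before that removal. FTO, an RNA demethylase, was at 67.3, 74.9, 55.5 and 57.9 CPM, AUTS2, a Polycomb-associated factor, at 79.7, 59.5, 48.6 and 64.8 CPM, and FRMD4A, a FERM domain protein of the polarity machinery, at 56.2, 51.5, 44.7 and 48.0 CPM. EXT1, a glycosyltransferase of heparan sulfate synthesis, was at 117, 111, 65.5 and 98.3 CPM, lowest in shCDK12. PTPRG, a receptor phosphatase, was at 38.1, 33.0, 43.3 and 33.2 CPM and NRXN3, a presynaptic adhesion protein, at 12.2, 16.6, 21.1 and 14.2 CPM. Both were highest in shCDK12. The scarcest were PRKG1, a cGMP-dependent kinase, at 3.18, 4.43, 4.63 and 7.59 CPM, DPYD, which degrades pyrimidines, at 5.14, 5.35, 6.80 and 8.31 CPM, and SMYD3, a lysine methyltransferase, at 6.52, 3.82, 6.55 and 8.29 CPM, and FAF1, a cofactor of the segregase p97, was at 16.8, 18.7, 21.1 and 17.1 CPM.

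Other fragile site genes were described in the same way. In shNT+OHT against shNT 1 of 5 tested fell, CSMD3 (-1.05, edgeR adjusted p = 0.0112), where 8.29% of all genes fell. In shCDK12 against shNT CSMD3, SDK1 and NEGR1 were lower, and PDE4D, CSMD1 and RORA were higher, where 32.4% of all genes were lower and 29.6% higher. The widest apart were PDE4D, a cAMP phosphodiesterase (1.87, edgeR adjusted p = 5.11e-07), and SDK1, an adhesion protein (-1.43, edgeR adjusted p = 2.12e-06). CSMD3, RORA and PDE4D were higher in shCDK12+OHT against shNT+OHT (as were 23.8% of all genes), and CSMD3 and SDK1 in shCDK12+OHT against shCDK12 (as were 27.5% of all genes). CSMD3 and SDK1 also passed in the interaction (2.00 and 1.73, edgeR adjusted p = 6.07e-06 and 6.55e-05), where 25.6% of all genes had a higher response. Of the 9 exocyst subunits, among them EXOC4 and EXOC6B, 2 fell in shNT+OHT against shNT (EXOC1 and EXOC5), where 8.29% of all genes fell. In shCDK12 against shNT 5 were lower and 2 higher (32.4% and 29.6% of all genes). 3 were higher and 1 lower in shCDK12+OHT against shNT+OHT (23.8% and 21.6% of all genes), and 5 higher and none lower in shCDK12+OHT against shCDK12 (27.5% and 21.5% of all genes).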

How the data were processed

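The authors deposited 1 table of raw counts per gene, without normalization, for 23434 human genes under Entrez identifiers. According to the submitters' processing notes, STAR 2.7.5c, featureCounts 1.4.5-p1 and hg19 were used, while annotation, feature type and strand setting are not given in the sources used here. RefSeq (GRCh38.p14) gave gene spans and the symbols of 23284 rows, and the other 150 rows were tested too. Exon length was the union of all GENCODE exons of a symbol, which may differ from the length that was counted. As the counts were made on hg19, no coordinates of that build are printed. Counts were tested with edgeR 4.0.16 in R 4.3.3 (TMM, quasi-likelihood test, Benjamini-Hochberg adjustment over all genes tested, adjusted p under 0.05) after genes averaging 32 normalized counts or fewer were dropped. Each comparison used its own 6 libraries, and the interaction all 12. The fit was tested on simulated data. The members, their roles and the other lists were chosen with earlier results of these data known, so no list was given a test of its own. Part of the list of other fragile site genes is not reported here. Statistics are printed for at most 10 genes per comparison, those with the largest log2 differences past the threshold, and for WWOX and IMMP2L. Length trends were fitted per library by loess (span 0.5) of log2 CPM (prior count 2) on span. Alternatives were upper-quartile scaling, DESeq2 1.42.0, other filters, 1 fit of all libraries, a replicate block, thinning to 1251695 counts and leaving out each library. Libraries of the same number came from no stated common batch.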

Additional observations from a re-analysis of the deposited data

Results flagged for a closer look

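The response to OHT was compared between the libraries labelled shCDK12 and shNT by the interaction test over all 12 libraries (edgeR, quasi-likelihood, adjusted by Benjamini-Hochberg). It differed in 21 of the 36 listed genes tested (58.3%), where 45.2% of all 11699 genes tested passed the threshold. The 10 largest of these differences of log2 differences were 2.42 for LSAMP, 1.72 for NBEA, 1.53 for FBXL17, 1.50 for CDH13, 1.45 for FOXP1, 1.43 for PTPRK, 1.42 for ZBTB20, 1.39 for UTRN, 1.20 for TCF4 and 1.17 for RABGAP1L, all positive. CDK12 had an interaction of -0.83 (edgeR adjusted p = 4.55e-05), and the direction of every value rests on labels that the CDK12 level did not bear out in the libraries without OHT. With the length trend removed FBXL17 (1.00) and CDH13 (0.90) no longer passed the threshold, and PTPRK, FOXP1, UTRN, ZBTB20, TCF4 and RABGAP1L were smaller by over 1.5 times (0.91, 0.91, 0.86, 0.86, 0.70 and 0.61). In that setting 16 of the 36 listed genes passed (44.4%), 9 higher and 7 lower, where 20.7% of all genes were higher and 23.7% lower.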

How the results depend on the processing

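Counts of listed genes past the threshold moved by over 1.5 times in 4 comparisons. In shNT+OHT against shNT 12 of 31 genes tested became 6 of 20 after thinning and 3 of 31 with the length trend removed, and 3 to 12 genes passed when 1 library was left out. In shCDK12+OHT against shNT+OHT 15 became 5 after thinning and 8 to 17 with 1 library left out. Thinning gave 12 for 24 in shCDK12+OHT against shCDK12 and 12 for 21 in the interaction, where fewer genes (23 of 39 and 23 of 36) were tested. Leaving out 1 library gave 22 to 24 for 22 in shCDK12 against shNT, 20 to 23 for 24 in shCDK12+OHT against shCDK12 and 19 to 24 for 21 in the interaction. For thinning and for 1 library left out, the share of all genes past the threshold is not given. Median log2 differences of the listed genes moved by more than their spread between libraries as follows. In shNT+OHT against shNT -0.29 became -0.22 with DESeq2, -0.35 in the fit of all libraries, -0.47 thinned, -0.012 with the length trend removed and -0.40 to -0.19 with 1 library left out. In shCDK12 against shNT -0.41 became -0.32 with upper-quartile scaling and in the fit of all libraries, -0.31 with no filter, with filterByExpr and with the length trend removed, -0.54 thinned and -0.47 to -0.22 with 1 library left out. In shCDK12+OHT against shNT+OHT 0.22 became 0.15 with DESeq2, 0.17 to 0.32 with 1 library left out, and turned to -0.23 with the length trend removed. In shCDK12+OHT against shCDK12 0.41 became 0.35 with upper-quartile scaling, 0.17 with the length trend removed and 0.35 to 0.46 with 1 library left out. The interaction median of 0.81 became 0.69 with upper-quartile scaling, 0.74 with DESeq2, 0.68 with no filter and with filterByExpr, 0.71 thinned, 0.21 with the length trend removed and 0.70 to 0.81 with 1 library left out. The cause was not tested for these, beyond the genes and libraries each alternative removes. WWOX in shCDK12+OHT against shCDK12 turned from -0.036 to 0.19 without shCDK12 replicate 3 and to 0.076 and 0.23 without shCDK12+OHT replicate 1 or 2.

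With the replicate number as a block the counts were 11, 22, 13, 25 and 20 (shNT+OHT against shNT, shCDK12 against shNT, shCDK12+OHT against shNT+OHT, shCDK12+OHT against shCDK12, interaction), and the medians -0.28, -0.41, 0.25, 0.42 and 0.80. The block ended the calls of CDH13 in shNT+OHT against shNT and of ZBTB20 in shCDK12+OHT against shNT+OHT (edgeR adjusted p = 0.070 and 0.0715). Deviations of libraries with the same number correlated with r from -0.092 to 0.30 over 18 pairs, 2 of them over 0.1. Those with different numbers had r from -0.34 to 0.0996 over 36 pairs. The 2 over 0.1 were shNT+OHT with shCDK12, at replicate 1 (0.28) and replicate 2 (0.30). No common batch is stated, and the main fits did not take the numbers as pairs. Of 52 log2 differences named with statistics, 33 kept sign and call under every alternative in which they were tested, 17 lost the call under at least 1, 1 gained a call and 1 changed sign. Only 30 of the 52 were tested after thinning, 39 in the fit of all libraries and 51 with DESeq2. A value not tested was not counted as a loss. The shallow shNT groups limit the precision for genes such as WWOX, IMMP2L, DPYD and PRKG1, whose counts are low.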

Other observations

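Each listed gene was also set beside 1 paralog or partner named in a list of pairs, in most cases a shorter gene. In shNT+OHT against shNT 16 pairs had both genes tested, and the listed gene had the lower log2 difference in 12, with medians of -0.45 for the listed genes and -0.024 for the partners. The partner was the shorter gene in 14 of these pairs, and the listed gene was the lower in 10 of the 14. NBEA and PTPRK, whose partners LRBA and PTPRM are longer, made up the rest. In shCDK12+OHT against shCDK12 the listed gene was the lower in 5 of 23 pairs (medians 0.32 and 0.12). In shCDK12+OHT against shNT+OHT it was the lower in 8 of 19, with medians near each other (0.055 and -0.00077). For the interaction it was the lower in 7 of 21 (medians 0.80 and 0.10). In shCDK12 against shNT it was the lower in 14 of 21 (medians -0.49 and -0.086), and single pairs went different ways. VPS13B was at -0.49 and its shorter relative VPS13A at 1.31 (edgeR adjusted p = 2.04e-07). NBEA was at -1.94 and LRBA, at 751 kb slightly longer, at 0.87 (edgeR adjusted p = 1.13e-05). LPP was at -0.92 and ZYX, a far shorter gene, at -1.27 (edgeR adjusted p = 1.24e-11). These values are a description of chosen pairs and were not tested as a set.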
